A study of Mus musculus with 16 samples.

Results

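Of the 577 miRNAs on the array, 5 belong to the white blood cell lineages and are described here: mmu-miR-142-3p, mmu-miR-142-5p, mmu-miR-223, mmu-miR-150 and mmu-miR-342-3p. They were chosen by name and function from the miRNAs on the array, with earlier results of these data known, among them the lower miR-342-3p signal in irradiated wild-type skin. All 5 entered the test. The values below therefore describe where each miRNA stood, and the p-values, which come from a limma fit to every miRNA tested, are no independent evidence for the choice.

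The samples were dorsal skin of mice on the mixed SKH1-C57/Bl6-SV129 background, with 4 arrays in each of 4 groups. Wild-type mice (WT) were Ppard+/+, and knockout mice (KO) were Ppard-/-, so they lacked PPARβ/δ, a nuclear receptor activated by lipids, in every cell. The mice were hairless albino females, and WT and KO were littermates. Their age is given as 8 to 12 weeks, without saying whether this was before or after the weeks of UVB. Mice without UV were age-matched. Mice received either no UV, with sham handling, or UVB at 70 mJ/cm2 on 3 occasions a week for 12 weeks, after which skin free of lesions was taken. The array carries no probe for the Ppard transcript, so the genotype labels could not be checked on it.

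A small set of miRNAs is made mostly by blood lineages, and these are used as signs of leukocytes in a tissue. The miR-142 hairpin is transcribed throughout the blood lineages and both of its arms are loaded into Argonaute. MiR-223 is the main miRNA of neutrophils and is also made by monocytes and macrophages, where it restrains granulocyte production and inflammatory signalling. MiR-150 is characteristic of mature resting B and T lymphocytes and NK cells, in which it restrains the transcription factor Myb, and it falls when lymphocytes are activated. MiR-342-3p is made from an intron of Evl, an actin regulator gene, and is abundant in lymphocytes. Skin also holds dendritic cells, mast cells and macrophages, so no single miRNA of this set stands for 1 cell type. In bulk skin, fewer cells of a type and less of the miRNA in each cell cannot be told apart.

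A mature miRNA finds its targets mainly through its seed, bases 2 to 8, and the sequences below show in capitals how the seeds of these miRNAs differ, including those of the 2 arms of miR-142. RefSeq held 4 of the 5 mature sequences, listed 5′ to 3′ on build GRCm38.p6, where the present name of both miR-142 arms carries the letter a.
mmu-miR-142-3p: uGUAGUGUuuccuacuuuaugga
mmu-miR-142-5p: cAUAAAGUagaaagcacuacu
mmu-miR-223: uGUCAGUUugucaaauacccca
mmu-miR-342-3p: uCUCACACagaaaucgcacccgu
The 4 seeds were all different, and none was shared with another of the 1679 mature mouse names in the table. What these 4 share is expression in blood lineages and not a seed.

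Both miR-142 arms lie on the plus strand of chromosome 11, the 5p arm at chr11:87756867-87756887 and the 3p arm at chr11:87756903-87756925. The hairpin at chr11:87756864-87756927, 64 bases long, is printed with the 2 arms in capitals to show that 1 precursor yields both.
Mir142: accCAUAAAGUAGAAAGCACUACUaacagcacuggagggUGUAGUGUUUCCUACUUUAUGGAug
MiR-223 is at chrX:96242884-96242905 on the plus strand, inside the transcript F630028O10Rik. MiR-342-3p is at chr12:108658680-108658702 on the plus strand, inside Evl. On the older mm9 build, which the array files use, the longer probe region of miR-150 was listed at chromosome 7, 52377138 to 52377153, a stretch of 16 bases.

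The arrays without UV were all on 1 slide and those with UV on another, so UV and slide cannot be told apart. On the slide with UV, row 1 held only WT and row 2 only KO samples, so a difference between rows there is also one of genotype. Summed over miRNAs, an array gave 170979 to 395200 intensity units, and 184 to 266 miRNAs were detected per array. Without UV the KO arrays were brighter, at 254694 to 395200 units against 170979 to 265981 in WT. With UV the sums were 200905 to 231139 units in KO and 223198 to 313107 in WT. Detected miRNAs numbered 216 to 266 without UV and 184 to 206 with UV. The SD of negative control spots was 3.66 to 4.25 units on the slide without UV and 9.10 to 10.3 units on the slide with UV. Each of the 5 miRNAs was detected on all 16 arrays, with no saturated spot. The scanner's own error was 7.13% to 8.32% of the signal for miR-142-3p, miR-223 and miR-342-3p, and up to 17.8% for miR-142-5p and 17.3% for miR-150, which were dimmer. Signals of different miRNAs depend on their probes, so each miRNA is compared with itself between groups.

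Without UV, WT skin had the highest mean of all 4 groups for each of the 5 miRNAs, though no genotype difference was called, and without normalization the KO mean was higher for miR-142-5p, miR-223 and miR-150. After chronic UVB both miRNAs taken as lymphoid, from their known expression and not from these data, were lower in WT skin. MiR-150 fell by 1.05 and miR-342-3p fell by 1.39 on the log2 scale, whereas the difference of the myeloid miR-223 was -0.15. In KO skin miR-150 fell by 0.56, while miR-342-3p was not called, with a difference of -0.29 (95% interval -0.90 to 0.31). The miR-142 arms overlapped between all pairs of groups.

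**Figure D1:**
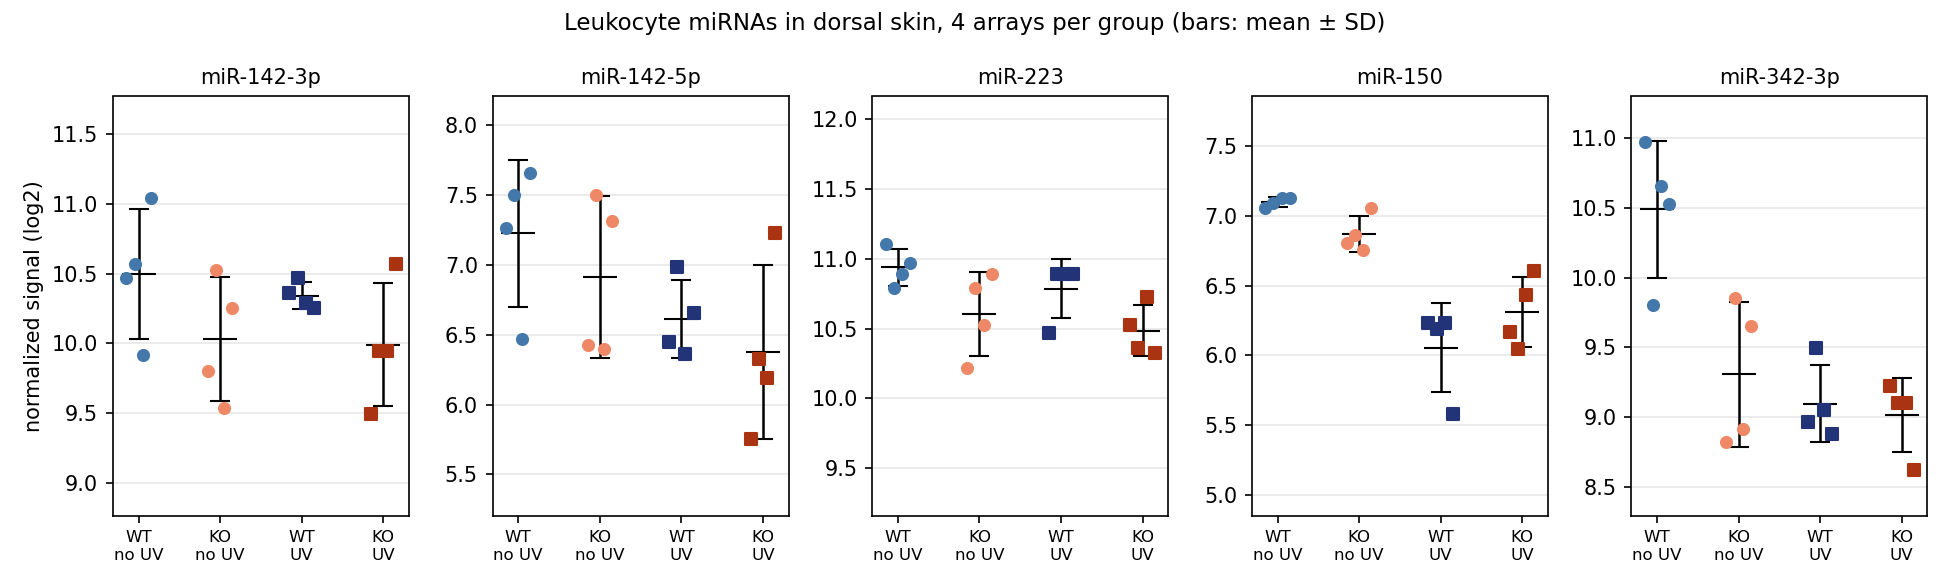
Quantile-normalized log2 signal (vertical axes, each spanning 3 log2 units) of the 5 leukocyte miRNAs on each of 16 arrays, grouped by genotype and UV. Points are arrays and bars are the mean ± SD of 4 arrays. The miR-150 arrays with UV sit at 6.60 or lower and those without UV at 6.76 or higher. For miR-342-3p the WT arrays without UV span 9.80 to 10.97 and overlap the KO arrays without UV, at 8.82 to 9.85.

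MiR-342-3p, the lymphocyte-rich miRNA of Evl, had its highest mean in WT skin without UV. In normalized signal units, its 4 WT arrays without UV read 2002, 894, 1611 and 1476. The KO arrays without UV read 452, 924, 482 and 804. After UVB the WT arrays read 500.4, 721, 530.2 and 470.05, and the KO arrays 597, 551, 551 and 395. All 4 irradiated WT arrays were below all 4 WT arrays without UV, while replicate 2 of WT without UV, the lowest of its group, lay under the highest KO array. The log2 means were 10.49 ± 0.49 (SD, n = 4) in WT without UV, 9.31 ± 0.52 in KO without UV, 9.10 ± 0.27 in WT with UV and 9.01 ± 0.27 in KO with UV. The last 3 of these means are within 0.29 of each other, less than the SD of the KO arrays without UV.

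In WT skin the UV difference of miR-342-3p was -1.39 (SE 0.28, 95% interval -1.99 to -0.79, limma adjusted p = 0.00383), which is 0.381 times the level without UV. In KO skin it was -0.29 (SE 0.28, interval -0.90 to 0.31, adjusted p = 0.445). Genotype alone, without UV, gave -1.18 for KO minus WT (SE 0.28, interval -1.78 to -0.58, adjusted p = 0.0565), which missed the threshold. Without WT replicate 2 this genotype difference was -1.42, with a limma adjusted p of 0.00635, and 16 miRNAs were called in place of none. Of the 16 fits that left out 1 array, only this 1 called the difference of miR-342-3p. Over those fits the difference ranged from -1.42 to -1.01, with a limma adjusted p of up to 0.197. With UV the 2 genotypes differed by -0.08 (interval -0.68 to 0.52).

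MiR-150, the miRNA of resting lymphocytes, fell in both genotypes. The WT arrays without UV read 133, 137, 140.0 and 140.0 units and the KO arrays without UV 112, 116, 108 and 133. With UV the WT arrays read 75.1, 72.9, 75.1 and 47.8, and the KO arrays 72.0, 66.2, 86.2 and 97.3. Every irradiated array was lower than every array without UV, in either genotype, although replicate 4 of WT with UV stood well under the other 3. The UV difference was -1.05 in WT (SE 0.15, interval -1.36 to -0.73, limma adjusted p = 0.000329) and -0.56 in KO (SE 0.15, interval -0.88 to -0.24, adjusted p = 0.0169). These are 0.485 and 0.680 times the level without UV. The log2 means ran from 7.10 ± 0.04 in WT without UV to 6.87 ± 0.13 in KO without UV, 6.31 ± 0.25 in KO with UV and 6.06 ± 0.32 in WT with UV (SD, n = 4). Neighbouring groups of the same irradiation state were not separated: KO minus WT was -0.23 without UV (adjusted p = 0.486) and 0.26 with UV (adjusted p = 0.645).

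MiR-223, the myeloid member, was not called for irradiation in either genotype. Its WT arrays read 2200.29, 1773, 1901 and 2002 units without UV and 1416, 1901, 1901 and 1901 with UV. Its KO arrays read 1193, 1773, 1476 and 1901 without UV and 1476, 1316, 1693 and 1284 with UV. Arrays with and without UV overlapped in both genotypes, and identical values are arrays on which miR-223 held the same rank. The UV difference was -0.15 in WT (SE 0.15, interval -0.47 to 0.17, limma adjusted p = 0.535) and -0.12 in KO (SE 0.15, interval -0.44 to 0.20, adjusted p = 0.559). These intervals leave room for falls of 0.47 in WT and 0.44 in KO and do not show that the level was the same.

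Between genotypes, KO minus WT for miR-223 was -0.33 without UV (interval -0.65 to -0.01, unadjusted p = 0.0442, limma adjusted p = 0.288) and -0.30 with UV (interval -0.62 to 0.02, adjusted p = 0.561). The log2 means were 10.94 ± 0.13 and 10.79 ± 0.21 in WT and 10.61 ± 0.30 and 10.49 ± 0.18 in KO, without and with UV in turn (SD, n = 4). None of these neighbours was separated by the test.

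Both arms of the pan-leukocyte miR-142 varied widely among arrays of the same group. MiR-142-3p read 1416, 1516, 965 and 2108 units in WT without UV and 894, 1476, 743 and 1219 in KO without UV. With UV it read 1316, 1416, 1254 and 1219 in WT and 721, 989, 989 and 1516 in KO. The spread within 3 of the 4 groups, an SD of 0.44 to 0.46 in log2, exceeded the UV differences, which were -0.15 in WT (interval -0.73 to 0.43, limma adjusted p = 0.731) and -0.04 in KO (interval -0.62 to 0.54, adjusted p = 0.982). KO minus WT was -0.47 without UV (adjusted p = 0.422) and -0.35 with UV (adjusted p = 0.808).

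The 5p arm, miR-142-5p, read 154, 181, 88.9 and 202 units in WT without UV and 86.2, 181, 84.3 and 159.57 in KO without UV. With UV it read 87.5, 127, 82.2 and 101 in WT and 53.9, 80.5, 72.9 and 150.35 in KO. The order of arrays within each group was close to that of the 3p arm: replicate 4 was highest for both arms in WT without UV and in KO with UV, and replicate 3 of the first and replicate 1 of the second were lowest for both. The UV differences were -0.61 in WT (SE 0.36, interval -1.38 to 0.16, limma adjusted p = 0.262) and -0.54 in KO (SE 0.36, interval -1.31 to 0.23, adjusted p = 0.284). KO minus WT was -0.31 without UV (adjusted p = 0.773) and -0.24 with UV (adjusted p = 0.951).

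**Figure D2:**
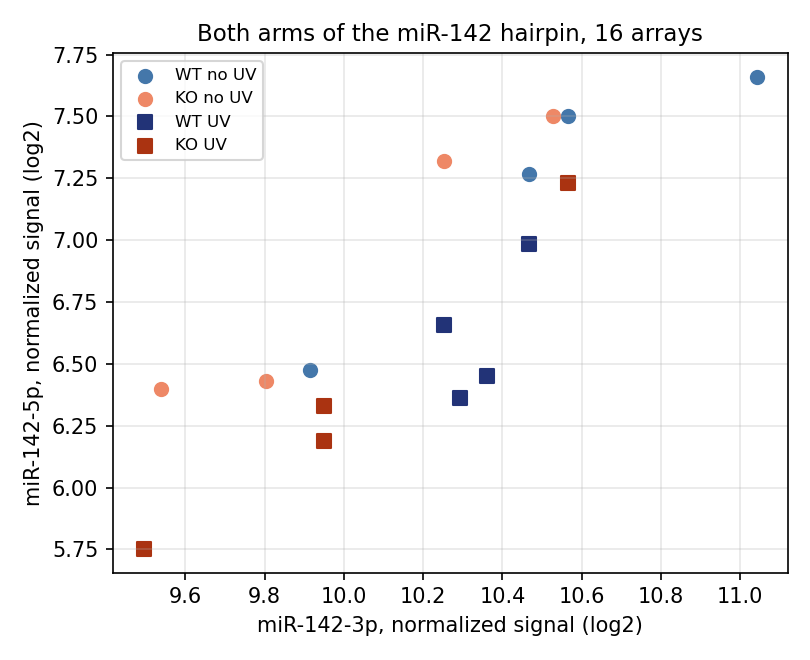
MiR-142-5p (vertical axis) against miR-142-3p (horizontal axis), both as normalized log2 signal, on 16 arrays coloured by group. Arrays high for one arm were high for the other, and arrays with UV (squares) lie below most arrays without UV (circles) of the same 3p signal.

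Across the 16 arrays, deviations of the 2 arms from their group means had a Pearson r of 0.944, the highest of the 10 pairs of members. On each array the 3p arm exceeded the 5p arm by a log2 difference that averaged 3.27 ± 0.17 in WT and 3.12 ± 0.19 in KO without UV, and 3.73 ± 0.23 and 3.61 ± 0.20 with UV (SD, n = 4). Its absolute size reflects the probes as well as the RNA, and only its change between groups can be read. That change was 0.46 in WT, where arrays with and without UV did not overlap, and 0.50 in KO, where they did. The 5p arm is the dimmer one, and the part of its dimness in this change was not tested.

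**Figure D3:**
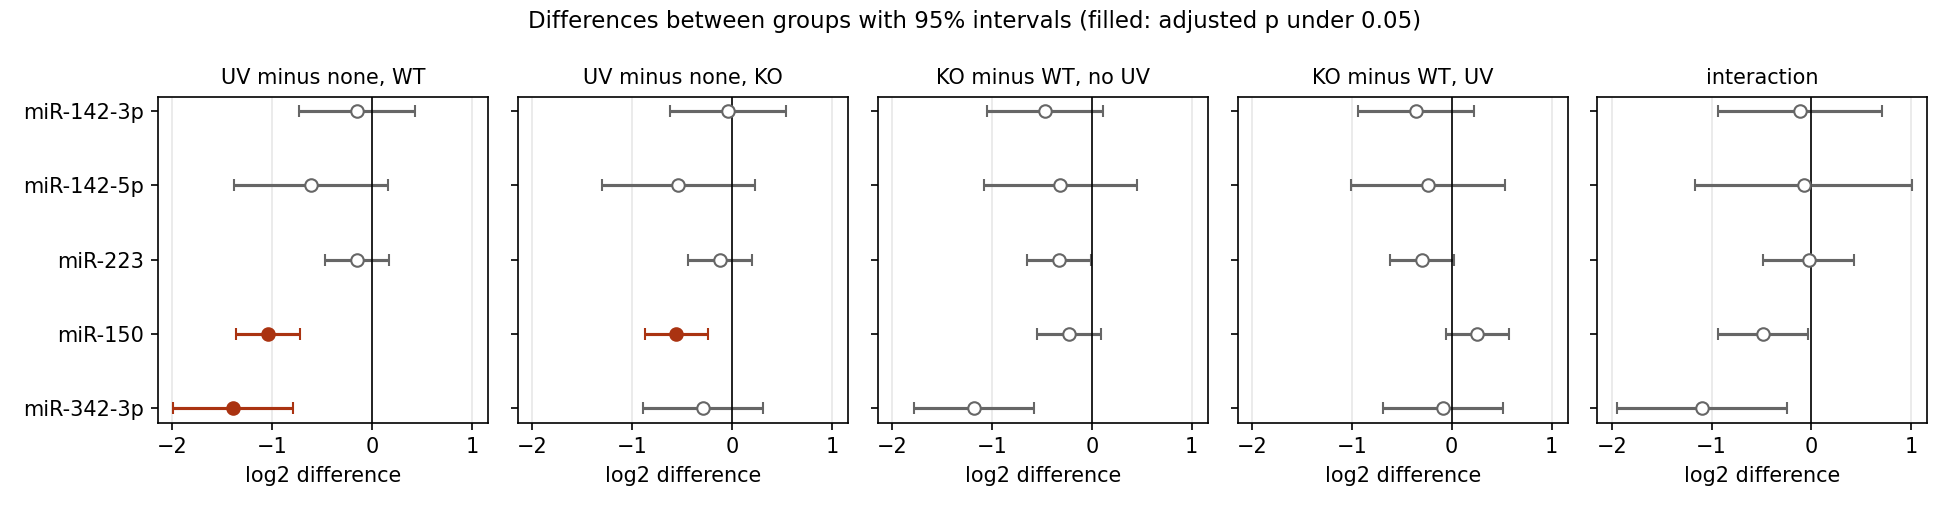
Log2 differences (horizontal axes) of the 5 miRNAs in the 5 comparisons, with 95% intervals from the limma fit. Filled points had an adjusted p under 0.05: miR-150 and miR-342-3p in WT and miR-150 in KO for UV minus none, and none in the other 3 panels.

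UV minus none in WT called 37 of 228 miRNAs, or 16.2%, and 2 of the 5 members; 16 of the 228, or 7.02%, were called lower, and both called members were among them. In KO, 68 miRNAs (29.8%) were called, 26 of them lower (11.4%), against 1 of the 5 members. Without KO replicate 1 or 3 without UV, or KO replicate 1 with UV, 43, 35 and 45 miRNAs were called, and the same number of members. All 4 UV arrays lay under all 4 arrays without UV for 18 miRNAs (7.89%) and 2 members in WT, and for 19 miRNAs (8.33%) and 1 member in KO. The median difference of the members was -0.61 in WT and -0.29 in KO, beside 0 over all miRNAs tested in each. With 5 members, chosen with some of these values known, the counts are given as a description.

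For genotype without UV, limma called none of the 228 miRNAs (0%) and none of the members, while 36 miRNAs had an unadjusted p under 0.05, among them miR-342-3p and miR-223. Without replicate 4 of KO without UV 4 miRNAs were called, none of them a member. With UV, 5 miRNAs (2.19%) were called for genotype and none was a member, and with slide row as a covariate 1 was called, and none for the interaction below. The interaction, the UV difference in WT minus that in KO, asks whether the lymphoid miRNAs fell more in WT. It was -1.10 for miR-342-3p (SE 0.39, interval -1.95 to -0.25, unadjusted p = 0.0155, limma adjusted p = 0.221) and -0.49 for miR-150 (SE 0.21, interval -0.94 to -0.04, unadjusted p = 0.0358, adjusted p = 0.326). Neither passed the adjusted threshold, which 5 of the 228 miRNAs (2.19%) did. When 1 array was left out, 1 to 12 miRNAs passed it (12 without WT replicate 2 without UV). For miR-223, miR-142-3p and miR-142-5p the interaction was -0.03, -0.11 and -0.08. A larger fall in WT than in KO was thus not established for either lymphoid miRNA at this number of arrays. The genotype means behind the interaction of miR-342-3p differed mostly in the groups without UV, by -1.18, and little in those with UV, by -0.08.

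Within groups the 2 miRNAs taken as lymphoid hardly varied together (r of 0.09), and miR-342-3p varied more with miR-223 (0.69). Their mean is therefore not a single lymphoid signal. The myeloid and lymphoid miRNAs were set side by side on each array by taking log2 miR-223 minus the mean of log2 miR-150 and log2 miR-342-3p. This difference averaged 2.14 ± 0.14 in WT without UV, 2.52 ± 0.13 in KO without UV, 3.21 ± 0.34 in WT with UV and 2.82 ± 0.10 in KO with UV (SD, n = 4). As with the miR-142 arms, only changes between groups are meaningful. The 4 WT arrays ranged from 2.0008 to 2.34 without UV and from 2.87 to 3.67 with UV. The KO arrays ranged from 2.41 to 2.69 and from 2.71 to 2.96. The normalized mean of miR-223 itself was lower with UV in both genotypes. Within either genotype the difference to the lymphoid pair was larger on every irradiated array than on every array without UV. In KO the gap was narrow, 2.69 against 2.71. How many such differences among other miRNAs separate the arrays was not counted. Without UV the difference was larger on every KO array than on every WT array, but the 2 lymphoid miRNAs did not share this direction. There, KO minus WT was 0.85 for miR-223 minus miR-342-3p and -0.10 for miR-223 minus miR-150, each with overlapping arrays.

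The change with UV was 1.07 in WT, a 2.09-fold shift of the ratio, and 0.30 in KO, a 1.23-fold shift. Taken apart, the ratio of miR-223 to miR-342-3p moved by 1.24 in WT and 0.17 in KO, and that of miR-223 to miR-150 by 0.89 and 0.43. The ratio of miR-223 to miR-142-3p, a myeloid against a pan-leukocyte miRNA, moved by 0.00 in WT and -0.08 in KO. In KO the arrays with and without UV overlapped for each of these 3 single ratios, and in WT they overlapped only for the last. In WT, where miR-150 and miR-342-3p fell, miR-223 was not called and its mean was not higher with UV. For the lymphoid pair without UV, miR-150 minus miR-342-3p was 0.95 higher in KO than in WT, with overlapping arrays (-2.99 to -2.01 against -3.91 to -2.71). No p-value is attached to these differences, since the miRNAs in them were chosen with results known.

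**Figure D4:**
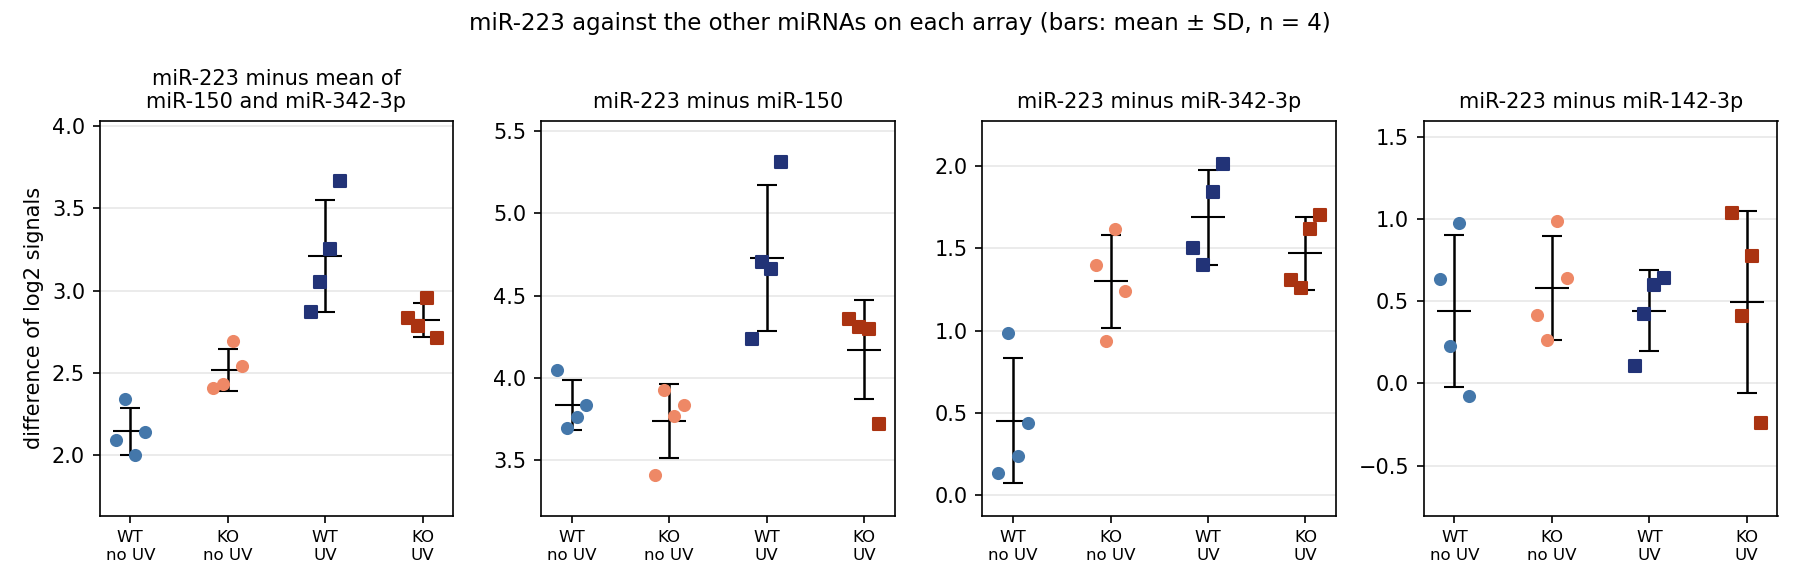
Difference of log2 signals (vertical axes, each spanning 2.4 log2 units) between miR-223 and the mean of miR-150 and miR-342-3p, miR-150, miR-342-3p or miR-142-3p on each of 16 arrays. Points are arrays and bars are the mean ± SD of 4 arrays. The first panel rises from 2.14 to 3.21 with UV in WT and from 2.52 to 2.82 in KO, whereas the groups overlap in the last panel.

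Each member was read by 2 probes of 10 spots each, both against the same RNA. For miR-150 the 2 probes, scaled to the 75th percentile of each array, gave UV differences of -1.47 and -1.13 in WT and -1.07 and -0.69 in KO. For miR-342-3p they gave -1.49 and -1.48 in WT and -0.40 and -0.33 in KO. The probes of miR-223 gave -0.49 and -0.19 in WT. The directions were thus the same on both probes of each lymphoid miRNA, while the dimmer probe of miR-223, which carried 19.5% to 27.3% of its signal, was the one with the larger difference and did not overlap between WT groups. Its brighter probe, with 72.7% to 80.5% of the signal, did not overlap between WT and KO without UV (-0.38). The normalized signal of miR-223 itself overlapped in both of these comparisons. How many of all probes separate groups this way was not counted, so these single probes are given as a description.

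The other strands of these hairpins gave little signal. MiR-342-5p, from the same hairpin as miR-342-3p and also within Evl, was detected on all 4 WT and on 3 of 4 KO arrays without UV and on none with UV, where control spots varied more. Only 1 array, a WT array without UV at 20.3 units, passed the floor of 19.4 units. MiR-150* was detected on 2 of 16 arrays, both KO without UV, and was not tested. A fall of miR-342-3p could therefore not be set beside its partner strand.

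Other miRNAs with known roles in leukocytes did not share a direction. The list of these held 10 names, of which 9 were on the array and 8 were tested: miR-146a, miR-146b, miR-155, the 4 miR-181 members and miR-342-5p. With UV in WT, 1 of the 8 rose and 1 fell, with a median difference of 0.04 beside 0 over all miRNAs. In KO 3 rose and none fell, with a median of 0.08. Over all 228 miRNAs tested, 21 were called higher and 16 lower in WT, and 42 higher and 26 lower in KO. MiR-146a, which restrains NF-κB signalling through Traf6 and Irak1, fell by 0.45 in WT (SE 0.14, limma adjusted p = 0.0468) and differed by -0.22 in KO (adjusted p = 0.263). MiR-181d, of a family that tunes receptor signalling in lymphocytes, rose by 0.26 in both WT and KO (adjusted p = 0.0109 and 0.0115).

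MiR-155, which is switched on in activated lymphocytes and macrophages, rose by 0.65 in KO (SE 0.20, limma adjusted p = 0.0319), while its WT difference was 0.09 (adjusted p = 0.791). MiR-146b rose by 0.71 in KO (SE 0.16, adjusted p = 0.00922), with 0.42 in WT (adjusted p = 0.0853). For neither was the interaction called (adjusted p = 0.497 for miR-155 and 0.674 for miR-146b). MiR-181a, miR-181b and miR-181c were not called in either genotype, with differences from -0.28 to 0.36. Both called lymphoid members thus fell while none of the 4 miR-181 miRNAs was called lower.

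**Figure D5:**
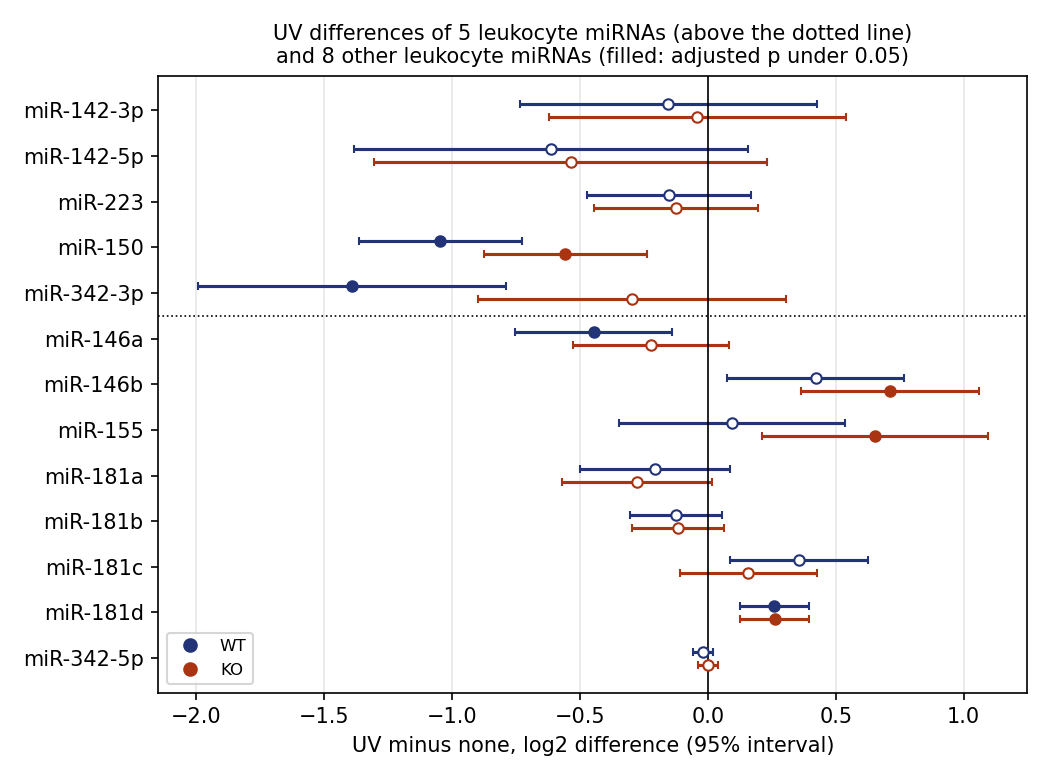
UV minus none as a log2 difference (horizontal axis) with 95% intervals in WT (blue) and KO (red), for the 5 members above the dotted line and 8 other leukocyte miRNAs below it. Filled points had an adjusted p under 0.05. The falls of miR-150 and miR-342-3p in WT lie further from 0 than any point below the line.

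Markers of other tissue parts moved with irradiation in the same samples. No tested miRNA of these lists was called for KO minus WT, with or without UV. Over all 228 miRNAs tested, 21 were called higher with UV in WT and 42 in KO. Of 7 keratinocyte miRNAs 4 rose in WT, led by miR-200c (0.83) and miR-141 (0.80), and 6 in KO, led by miR-200c (0.80) and miR-203 (0.59). Their summed signal was 21539 to 25477 units in WT without UV and 26081 to 31708 with UV, and 22225 to 27764 and 29320 to 43027 in KO. So the RNA of the irradiated samples held more signal of epithelial miRNAs while that of the lymphoid miRNAs was lower. Whether this had a part in the lower lymphoid signals was not tested.

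Skeletal muscle miRNAs had their highest summed signals in KO skin without UV. All 5 fell with UV in KO, led by miR-133a (-1.25) and miR-133b (-1.08), and none was called in WT. Over all 228 miRNAs tested, 26 were called lower with UV in KO. None of the 5 muscle miRNAs was called for genotype without UV (limma adjusted p from 0.0552 to 0.202). Their summed signal was 40913 to 50725 units in KO without UV, against 20586 to 41435 in WT without UV, 22101 to 26216 in WT with UV and 19639 to 24704 in KO with UV. The KO samples without UV thus had the most muscle signal, apart from 1 WT array within their range, and the part of muscle in their miR-342-3p values was not tested.

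Of the 2 red cell miRNAs tested, a sign of blood in the tissue, miR-451 differed by 0.33 in WT and -0.04 in KO, neither called, and miR-486, which muscle also makes, fell by 0.86 in KO (limma adjusted p = 0.0135). The summed signal of the red cell list, which also held the untested miR-144, was 933 to 1398 units in WT without UV and 860 to 2184 with UV. It overlapped between all groups. Of 7 fibroblast and vessel miRNAs, miR-145 of smooth muscle fell in WT (-0.93) and KO (-1.66), miR-126-3p of endothelium rose in WT (0.46), and miR-143 of smooth muscle fell in KO (-0.79). MiR-214, made by fibroblasts and named after its values were seen, rose in KO (0.32, limma adjusted p = 0.0360), and miR-126-3p was called for the interaction (0.45, adjusted p = 0.0345). The part of these tissues in the leukocyte values was not tested.

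Some members varied together within groups and others did not. Deviations from group means of miR-150 had an r of 0.09 with those of miR-342-3p and 0.02 with those of miR-223, over 16 arrays, while miR-223 and miR-342-3p had an r of 0.69 and miR-142-3p and miR-150 one of 0.40. Each array shares its hybridisation and its normalization across miRNAs, so these values are descriptions. Among the 212 other tested miRNAs that varied, the nearest to both miR-142 arms was miR-29b, with r of 0.87 for the 3p and 0.88 for the 5p arm. Next came miR-212 and miR-301a for the 3p arm (0.79 and 0.76) and miR-19b and miR-212 for the 5p arm (0.83 and 0.82). The nearest to miR-223 were miR-425, miR-500 and miR-7a, from 0.79 to 0.72, and 0.76, 0.82 and 0.33 over the 16 arrays with group means kept. The nearest to miR-342-3p were miR-34a, miR-21 and miR-155, from 0.82 to 0.76, but only 0.26 to 0.28 over the 16 arrays without removing group means. For miR-150, whose WT arrays without UV hardly differed, the nearest were miR-136, miR-15a and miR-300, from 0.71 to 0.60, and over the 16 arrays without removing group means these r were all negative (-0.56, -0.53 and -0.34). The likeness to miR-150 within groups thus did not carry over to differences between groups. Over the 16 arrays miR-29b kept an r of 0.87 with both miR-142 arms, while miR-301a had 0.28 with the 3p and miR-19b 0.38 with the 5p arm.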

How the data were processed

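MiRNA in mouse dorsal skin was measured on 16 single-colour Agilent arrays, and groups and replicate numbers come from the sample titles. The deposited scanner files hold intensity on a linear scale (Agilent Feature Extraction 9.5.3.1): per the file headers, background was subtracted and the spots of each miRNA were summed into a total gene signal with a detection call, with no normalization between arrays. The deposited series table holds log2 values normalized by the authors and served as an alternative. The array release given in the methods is later than that in the file headers, which were followed.

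Total gene signals were quantile normalized over the 16 arrays (limma 3.58.1, R 4.3.3), set to at least 19.4 units (the 5th percentile of the signals of detected miRNAs, as the median of the 16 arrays) and taken to log2 (floor 4.28), which understates changes of dim miRNAs. A miRNA was tested if any group had it detected on each of its 4 arrays, which held for 228, of which 167 were detected on every array. The fit used group means over all 16 arrays (lmFit, eBayes). A call was a p under 0.05 after Benjamini-Hochberg adjustment for the 228. The procedure was tested on simulated data. The methods speak of 4 animals per group, but the labels do not tie an array to an animal, so p-values measure the spread between these samples, which may be technical. The number of arrays limits the precision.

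The members and lists were chosen with earlier results of these data known. Named were the 5 members and their partner strands. From each list came the miRNAs detected throughout (other leukocyte list) or up to 2 called with the largest difference per UV comparison. The 3 miRNAs most like each member were also named. MiR-451 was added as the defining red cell marker. Mature sequences are from RefSeq.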

Additional observations from a re-analysis of the deposited data

Results flagged for a closer look

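Of 24 sets of 4 arrays, 5 miRNAs and the balance of miR-223 over the lymphoid pair in 4 groups each, 2 held an array whose gap to its nearest neighbour was a larger part of the range than Dixon's 95% critical value. Chance gives about 5% of such sets. In WT with UV, replicate 1 read 10.47 for miR-223 while the other 3 arrays read 10.89 each, having held the same rank. In the same group, replicate 4 read 5.58 for miR-150, against 6.19 to 6.23 on the others. Without replicate 4 the UV difference of miR-150 in WT was still called.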

How the results depend on the processing

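Each result was recomputed with 17 other choices of normalization, signal, filter, floor, fit or threshold, and without each of the 16 arrays. The falls of miR-150 in both genotypes and of miR-342-3p in WT kept their direction in all of these and were called in all, except that miR-150 in KO was not called at an adjusted p under 0.01 or by the methods' selection (p under 0.001 and at least 1.5-fold). The size of the miR-150 fall ranged from -0.40 (normexp) to -1.28 (invariant set) in WT and from -0.29 (normexp) to -1.23 (no normalization) in KO. Members called numbered 2 for UV in WT throughout. For UV in KO they numbered 3 without normalization (miR-223 at -0.60 and miR-342-3p at -0.83 joining) and 0 under the 2 stricter selections. For genotype without UV they numbered 1 (miR-342-3p) with processed spot signals, normexp background, the authors' series table, miRNAs detected on all 16 arrays only, a floor of 1 unit and the methods' selection. With the remaining choices miR-342-3p was not called there, with a limma adjusted p of up to 0.254 (only the compared groups in the fit). For the interaction 1 (miR-223) was called without normalization. Leaving out 1 array gave 2 to 2 for WT, 1 to 1 for KO, 0 to 1 for genotype without UV and 0 to 0 for the others.

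The UV change of miR-223 over the lymphoid pair in WT was 0.54 with normexp, which compresses dim signals, and 0.91 to 1.18 without 1 array. In KO it was 0.13 with normexp, 0.43 with either 75th percentile, an invariant set or no normalization, and 0.26 to 0.36 without 1 array. None of the values that changed sign had been called. Without normalization these were, for UV in WT, miR-142-3p (0.17) and miR-223 (0.13), for genotype without UV, miR-142-5p (0.22), miR-223 (0.17) and miR-150 (0.36), for genotype with UV, miR-150 (-0.061), and for the interaction miR-142-3p (0.61), miR-142-5p (0.70), miR-150 (0.42) and miR-223 (0.73, then called). MiR-142-3p for UV in KO turned to 0.022 and 0.13 with the 75th percentile of miRNAs detected on all arrays and of all miRNAs, 0.019 with processed spot signals, 0.055 with normexp and 0.037 with slide row as a covariate. The interaction of miR-223 turned to 0.087 with processed spot signals and 0.063 with slide row. Without 1 array, miR-142-3p ranged from -0.34 to 0.027 for UV in WT, from -0.23 to 0.12 for UV in KO and from -0.30 to 0.077 for the interaction, the interaction of miR-142-5p from -0.33 to 0.21 and of miR-223 from -0.12 to 0.10, and miR-342-3p for genotype with UV from -0.16 to 0.049. The cause was not tested.

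Over all miRNAs tested, 15 to 59 were called for UV in WT and 16 to 130 for UV in KO (35 without KO replicate 3 without UV). For genotype without UV 0 to 111 were called, for genotype with UV 0 to 7 and for the interaction 0 to 138. The highest counts, but those of UV in WT and genotype with UV, were without normalization. The number tested was 577 without a filter, 167 for miRNAs detected on all 16 arrays only, 228 to 236 without 1 array and 228 otherwise. The fit without a filter is weak, since most floored miRNAs had no spread. With the replicate number as a block the members called were 2, 1, 0, 0 and 0, as before, and all miRNAs called were 40, 61, 0, 4 and 1. Of 24 pairs of arrays with the same number in 2 groups, 15 had correlated deviations over 0.1 (range -0.35 to 0.38). The median r was 0.16 for these 24 pairs and -0.05 for pairs of arrays with different numbers. Arrays with the same number were thus somewhat more alike. The main fit did not use the numbers, and whether they mark pairs was not tested. Dim signals (miR-150, miR-142-5p) carry the larger scanner error and limit the size of their changes.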
